A study of Homo sapiens with 6 samples.

Results

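A set of 6 genes of the cellular response to low oxygen and of glucose use, EGLN3, VEGFA, SLC2A3, HK2, PGK1 and DDIT4, was taken by name from a table of 6641 genes and followed through the 6 libraries of the series. All of them were in the table and passed the minimum level for testing. The libraries came from 2 human lung cancer cell lines, 3 labelled HCC827_Er and 3 labelled HCC827. HCC827 is a widely used lung adenocarcinoma cell line whose growth depends on a mutated EGFR, the receptor of epidermal growth factor. Its counterpart HCC827_Er is known from the labels by that name alone, and the series title sets resistant cells against parental ones. No treatment, dose, time or culture oxygen is given for either line, the way in which HCC827_Er was derived is not stated, and separate cultures are not mentioned for the 3 libraries of either line. The p-values therefore speak only of the spread between these samples, which may be technical. Both lines are labelled as non-small cell lung cancer cells. The series asks how histone crotonylation relates to resistance to EGFR inhibitors, and this comparison reads the transcripts that differ between the lines.

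The hypoxia-inducible factors (HIF) are transcription factors made of an alpha subunit, which is short-lived when oxygen is plentiful, and a stable beta subunit. Prolyl hydroxylases of the EGLN family mark the alpha subunit for destruction in the presence of oxygen, and when oxygen falls the factor accumulates and turns on genes of glucose uptake, glycolysis and vessel growth. The 6 genes are textbook targets of this factor, but growth factor signalling, MYC and other stress pathways act on several of them too, and cancer cells often express them in ordinary culture. Transcripts were measured here, not protein, hydroxylation or oxygen.

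The deposited values were FPKM, fragments counted relative to transcript length and to the size of the library, so levels can be set side by side between genes, and the depth of the libraries was unknown. Summed over the table, the HCC827_Er libraries held 184633 to 190415 FPKM and the HCC827 libraries 222927 to 224211 FPKM. Pairs of libraries within a line correlated at 0.991 to 0.994 and pairs across the lines at 0.806 to 0.809 (Pearson r across genes, which are not independent replicates). The table holds almost no gene at a like level in both lines. Of 2362 genes with a mean of at least 10 FPKM, 16 had a ratio of means within 0.4 of equal on the log2 scale. Epithelial markers were present in both lines, except that the surfactant genes among them were under 1 FPKM in every HCC827 library. The direction of those genes was fixed by the minimum level for testing. Of 9 tested markers 8 were called higher in HCC827_Er, beside 24.7% of all tested genes. EPCAM, among those 8, reached 297 ± 26.4 FPKM in HCC827_Er and 30.1 ± 0.429 FPKM in HCC827 (SD, n = 3). The exception was the keratin gene KRT8, with 1025 ± 31.7 FPKM in HCC827_Er and 1744 ± 45.9 FPKM in HCC827. The fibroblast markers in the table summed to between 9.33 and 11.5 FPKM in HCC827_Er and between 2.46 and 3.35 FPKM in HCC827, and COL1A1 made up most of the HCC827_Er sum, at 10.1 ± 0.932 FPKM in HCC827_Er and 0.750 ± 0.243 FPKM in HCC827 (log2 difference 2.67, called higher). COL3A1 was listed at 0 in every HCC827_Er library. The endothelial markers summed to between 6.83 and 7.78 FPKM in HCC827_Er and between 8.48 and 9.57 FPKM in HCC827, and CDH5 was listed at 0 in every HCC827 library. The leukocyte markers summed to between 131 and 144 FPKM in HCC827_Er and between 173 and 179 FPKM in HCC827, most of it CD68. Of 5 tested leukocyte markers 4 were called higher in HCC827_Er, beside 24.7% of all tested genes. CD68 was lower by 0.57 on the log2 scale. The 4 called higher were under 1 FPKM in every HCC827 library, so the minimum level fixed their direction. The part of all these markers in the results below was not tested.

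Start regions of 4 of the 6 genes, EGLN3, HK2, PGK1 and DDIT4, were found in a RefSeq promoter table (GRCh38.p14), and HK2 has 2 start sites in it. They are shown because the 6 genes are textbook targets of HIF, which binds a short core motif that the letters ACGTG and GCGTG spell. Both were searched on both strands in the 250 bases before each start, with overlapping matches counted separately. The capitals mark every match, and each sequence runs 5′ to 3′ on the strand of the gene and stops before any annotated untranslated region. The stretches lie at chr14:33951082-33951324 on the minus strand for EGLN3, and on the plus strand at chr2:74833877-74833980 and chr2:74834920-74835169 for the upstream and downstream starts of HK2, chrX:78103998-78104173 for PGK1 and chr10:72273674-72273919 for DDIT4.
EGLN3: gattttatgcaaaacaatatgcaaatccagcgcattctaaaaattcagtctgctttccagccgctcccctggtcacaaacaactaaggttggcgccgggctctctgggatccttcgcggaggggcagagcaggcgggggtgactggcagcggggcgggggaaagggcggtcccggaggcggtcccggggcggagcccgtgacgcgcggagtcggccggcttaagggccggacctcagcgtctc
HK2 upstream start: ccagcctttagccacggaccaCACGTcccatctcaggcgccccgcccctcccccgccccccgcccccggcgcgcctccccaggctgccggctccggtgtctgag
HK2 downstream start: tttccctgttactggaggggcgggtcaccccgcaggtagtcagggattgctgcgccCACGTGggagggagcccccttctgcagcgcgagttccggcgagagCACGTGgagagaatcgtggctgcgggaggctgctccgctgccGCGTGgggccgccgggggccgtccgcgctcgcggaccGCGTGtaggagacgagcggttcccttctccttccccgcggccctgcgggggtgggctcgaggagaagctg
PGK1: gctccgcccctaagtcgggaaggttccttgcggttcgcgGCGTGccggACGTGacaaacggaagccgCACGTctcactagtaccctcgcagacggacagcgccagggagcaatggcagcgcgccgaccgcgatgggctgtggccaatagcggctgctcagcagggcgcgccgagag
DDIT4: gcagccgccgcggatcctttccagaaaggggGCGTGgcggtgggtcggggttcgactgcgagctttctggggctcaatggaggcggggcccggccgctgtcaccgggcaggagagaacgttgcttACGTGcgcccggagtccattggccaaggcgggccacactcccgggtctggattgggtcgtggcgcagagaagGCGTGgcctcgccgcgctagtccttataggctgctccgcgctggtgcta

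The EGLN3 window held no match. PGK1 held 3 matches, starting 211, 202 and 183 bases before the start site, and DDIT4 held 3, starting 219, 125 and 53 bases before it. HK2 held 3 matches before its upstream start, of which the 1 that starts 229 bases before it is in the stretch shown, and 6 before its downstream start. The palindrome CACGTG occurs at 2 places in that downstream window and counts as a match on each strand. Of all 35116 windows of the promoter table, 43.2% held at least 1 match and 19.4% held 2 or more, so a match is common among promoters. A match describes the letters only, and binding was not measured.

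All 6 genes were higher in HCC827_Er. The test was limma on log2(FPKM + 1) over all 5276 genes with at least 1 FPKM in 3 libraries, and a call required a log2 difference of 1 or more, which is a 2-fold change, together with an adjusted p below 0.05. All 6 were called higher, against 24.7% of the tested genes called higher and 19.7% called lower, 44.4% together. The adjusted p alone was under 0.05 for 98.3% of the tested genes, so it sets no gene apart in this table. In each of the 6 genes every HCC827_Er library stood above every HCC827 library, which also held for 50.0% of the tested genes. The reverse held for 47.1%, so that 97.1% of the tested genes had no overlap between the lines. For a gene under 1 FPKM in all libraries of 1 line, the minimum level fixes the direction and the lack of overlap. SLC2A3 was such a gene, tested only because of its HCC827_Er libraries. In bulk RNA a change in the share of cells that express a gene and a change in RNA per cell cannot be told apart. The genes were chosen by name, with their values known from earlier work on the same table, so the count of 6 describes these genes and does not test the pathway.

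**Figure D1:**
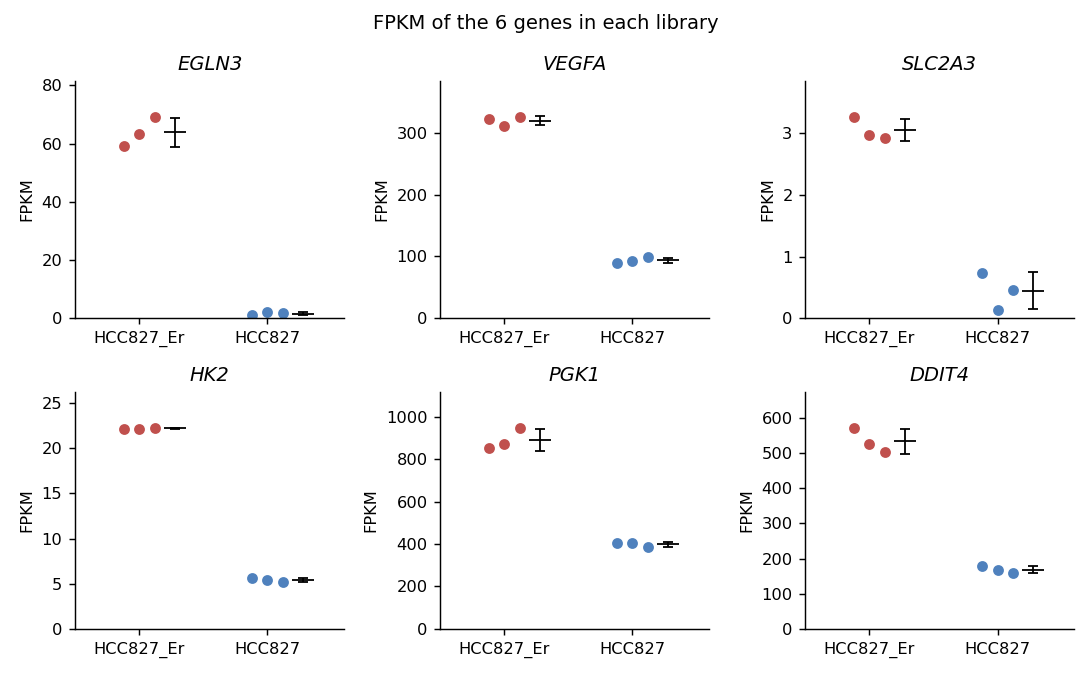
FPKM of EGLN3, VEGFA, SLC2A3, HK2, PGK1 and DDIT4 in each of the 3 HCC827_Er libraries (red) and the 3 HCC827 libraries (blue), with the mean and SD of each line as a black bar beside the points. In every panel the 3 HCC827_Er libraries lie above the 3 HCC827 libraries, and the axes start at 0.

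EGLN3 (ENSG00000129521), the HIF prolyl hydroxylase that is itself induced by HIF, had the widest difference of the 6. It lies on the minus strand of chromosome 14, at chr14:33924231-34462774 in GENCODE 29 on GRCh38. EGLN3 had 58.98, 63.38 and 69.03 FPKM in the HCC827_Er libraries, against 1.08, 2.06 and 1.62 FPKM in the HCC827 libraries. Its level was thus near the bottom of the tested range in HCC827 and far above that in each HCC827_Er library. Means were 63.8 ± 5.04 FPKM in HCC827_Er and 1.59 ± 0.491 FPKM in HCC827 (SD, n = 3), a ratio of 40.2. The log2 difference was 4.66 (SE 0.14, limma adjusted p = 1.16e-08), the 23rd largest rise of the tested genes.

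The other oxygen sensor in the table moved the other way. EGLN1, the main hydroxylase of HIF alpha subunits under normal oxygen, had 22.85, 21.54 and 26.97 FPKM in HCC827_Er, against 38.43, 36.23 and 32.55 FPKM in HCC827. Its log2 difference of -0.57 (SE 0.10, limma adjusted p = 4.80e-04) was under the 2-fold minimum. EGLN3 made up 72.9 ± 1.53% of the summed FPKM of the pair in HCC827_Er and 4.28 ± 1.38% in HCC827 (SD, n = 3). EGLN1 was the more abundant of the pair in all 3 HCC827 libraries, and EGLN3 was in all 3 HCC827_Er libraries. Apart from the pseudocount, a ratio within a library does not depend on how libraries are scaled to each other. The log2 ratio of EGLN3 to EGLN1, each with 1 FPKM added, was 1.39 ± 0.11 in HCC827_Er and -3.84 ± 0.35 in HCC827, and an exact two-sided permutation test gave p = 0.10, the smallest that 3 against 3 libraries allow.

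HIF1A, the oxygen-regulated alpha subunit, had 274.55, 295.33 and 294.08 FPKM in HCC827_Er, against 410.82, 402.93 and 440.62 FPKM in HCC827. Its log2 difference was -0.54 (SE 0.05, limma adjusted p = 1.43e-05), under the 2-fold minimum, with no overlap between the lines. CITED2, which competes with HIF for its coactivators and is induced by it, fell to 23.8 ± 3.07 FPKM in HCC827_Er, against 65.8 ± 5.98 FPKM in HCC827 (log2 difference -1.44, limma adjusted p = 2.16e-06). BHLHE41, a repressor of transcription that HIF induces, fell to 1.23 ± 0.641 FPKM, against 6.69 ± 0.526 FPKM in HCC827, though BHLHE41 was not called with 5 FPKM added (-0.91). ARNT2, a relative of the beta subunit, stood at 1.00 ± 0.173 FPKM in HCC827_Er and 0.230 ± 0.355 FPKM in HCC827 and was too low to be tested. Of the 18 names listed as HIF subunits and their regulators, 6 were in the table and 5 were tested. EGLN3 was the only one called higher, and CITED2 and BHLHE41 were called lower, beside 24.7% and 19.7% of all tested genes. The median of the 5 was -0.57, where the median of all tested genes was 0.43. The other 12 names were not analysed here.

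VEGFA (ENSG00000112715), at chr6:43770184-43786487, encodes the secreted factor that drives the growth of blood vessels. VEGFA had 322.81, 311.58 and 325.52 FPKM in HCC827_Er, against 89.97, 92.65 and 98.39 FPKM in HCC827. The 3 libraries of each line lay close together, with an SD of 2.31% of the mean in HCC827_Er and 4.59% in HCC827. Its log2 difference was 1.76 (SE 0.05, limma adjusted p = 9.68e-09).

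Its relative VEGFC, the factor of lymphatic vessels, fell. VEGFC had 12.2, 12.12 and 13.03 FPKM in HCC827_Er, against 35.37, 36.05 and 32.67 FPKM in HCC827 (log2 difference -1.41, SE 0.07, limma adjusted p = 2.75e-07). VEGFA held 96.3 ± 0.10% of the summed FPKM of the pair in HCC827_Er and 72.9 ± 1.84% in HCC827. The coreceptor gene NRP2 rose to 38.2 ± 1.03 FPKM in HCC827_Er, against 10.9 ± 0.789 FPKM in HCC827, and ANGPTL4, a secreted inhibitor of lipoprotein lipase and a HIF target, rose to 169 ± 5.43 FPKM, against 48.8 ± 4.61 FPKM. PGF, a ligand of the same receptor family, stood at 1.20 ± 0.111 FPKM in HCC827_Er and 0.290 ± 0.0557 FPKM in HCC827, with a log2 difference of 0.77. Its call depends on the pseudocount, since PGF was called with 0.1 FPKM added (1.75). PGF was under 1 FPKM in every HCC827 library and tested only because of HCC827_Er, so the minimum level fixed its direction. Of the 14 names listed as VEGF family and receptors, 6 were tested, with 3 called higher and 1 called lower. Their median of 1.25 rests in part on PGF. Without VEGFA 2 of 5 were called higher. Of all tested genes 24.7% were called higher and 19.7% lower.

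SLC2A3 (ENSG00000059804), at chr12:7919230-7936275, encodes the high-affinity glucose transporter GLUT3. SLC2A3 had 3.26, 2.97 and 2.92 FPKM in HCC827_Er, against 0.74, 0.14 and 0.46 FPKM in HCC827. It was the least abundant of the 6 genes in both lines, and its HCC827 libraries spread widely, with an SD of 67.2% of their mean. The ratio of means was 6.83, while the log2 difference of 1.51 (SE 0.16, limma adjusted p = 1.97e-05) corresponds to less because 1 FPKM was added to each value. With 5 FPKM added the difference was 0.56 and the gene was not called, and with 0.1 FPKM added it was 2.70. Of the 3841 windows of 75 bases in its transcript, 500 occurred unchanged in SLC2A14, a near-identical copy next to it that is not analysed here, so the source of those reads is uncertain.

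SLC2A1, which encodes GLUT1, the main glucose carrier of most cancer cells, was far above SLC2A3 in both lines. SLC2A1 had 241.14, 174.74 and 156 FPKM in HCC827_Er, against 82.8, 70.59 and 60.44 FPKM in HCC827. It rose with a log2 difference of 1.39 (SE 0.16, limma adjusted p = 4.04e-05), and its lowest HCC827_Er library was above its highest HCC827 library. The 9 SLC2A genes in the table summed to 204 ± 46.3 FPKM in HCC827_Er and 87.6 ± 11.0 FPKM in HCC827. SLC2A3 made up 1.53 ± 0.24% of that sum in HCC827_Er and 0.50 ± 0.30% in HCC827, and SLC2A1 made up 93.4 ± 0.67% and 81.1 ± 2.88%. The log2 ratio of SLC2A3 to SLC2A1 was -5.54 ± 0.26 in HCC827_Er and -5.65 ± 0.29 in HCC827, a difference of 0.11 within the spread of the libraries (exact two-sided permutation p = 0.60). That difference was -0.05 without HCC827 replicate 2, -0.78 with 5 FPKM added and 1.30 with 0.1 FPKM added, so the direction depends on the setting.

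Of the other carriers, SLC2A10 rose to 2.87 ± 0.376 FPKM in HCC827_Er, against 0.233 ± 0.164 FPKM in HCC827. SLC2A12 rose to 1.36 ± 0.142 FPKM, against 0.0633 ± 0.0404 FPKM in HCC827, and SLC2A9, a urate carrier, to 1.51 ± 0.195 FPKM, against 0.210 ± 0.0624 FPKM. SLC2A9 was close to the 2-fold minimum at a log2 difference of 1.05 and was not called without HCC827_Er replicate 3 (0.99) or with median-ratio rescaling (0.91). SLC2A6 fell to 3.90 ± 1.27 FPKM in HCC827_Er, against 13.3 ± 0.429 FPKM in HCC827. SLC2A2, SLC2A4 and SLC2A5 were too low to be tested, and SLC2A2 was listed at 0 in all 3 HCC827_Er libraries. TXNIP, an arrestin that is induced by glucose and removes glucose transporters from the cell surface, rose to 75.3 ± 2.02 FPKM in HCC827_Er, against 16.6 ± 0.477 FPKM in HCC827 (log2 difference 2.12, limma adjusted p = 9.18e-09). Of 18 names listed under glucose transport 9 were tested, with 6 called higher and 1 called lower (median 1.15), and 5 of 8 called higher without SLC2A3, beside the 24.7% of all tested genes. SLC2A3, SLC2A9, SLC2A10 and SLC2A12 were under 1 FPKM in every HCC827 library and were tested only because of HCC827_Er. Their direction was thus fixed by the minimum level, so the count is not a free comparison with that share. SLC2A12 itself set the median of 1.15. With 5 FPKM added 2 glucose transport genes were called higher, and SLC2A10 (0.59) and SLC2A12 (0.33) were not.

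HK2 (ENSG00000159399), at chr2:74833981-74893359, encodes the inducible hexokinase that traps glucose in the cell by phosphorylation. HK2 had 22.14, 22.18 and 22.25 FPKM in HCC827_Er, against 5.66, 5.41 and 5.22 FPKM in HCC827. The HCC827_Er libraries were nearly identical, with an SD of 0.0557 FPKM. Its log2 difference was 1.85 (SE 0.08, limma adjusted p = 8.95e-08), and 4.37% of the 75-base windows of its transcript occur in the pseudogene HK2P1, which is not analysed here.

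HK2 rose while the other hexokinase genes in the table were lower. HK1, the hexokinase of most tissues, had 49.37, 46.47 and 52.29 FPKM in HCC827_Er, against 81.07, 81.86 and 92.84 FPKM in HCC827, and its log2 difference of -0.77 (limma adjusted p = 1.09e-05) was under the 2-fold minimum, though HK1 passed with median-ratio rescaling at -1.11. HKDC1, a hexokinase-like gene beside HK1, fell to 23.8 ± 2.56 FPKM in HCC827_Er, against 64.7 ± 2.40 FPKM in HCC827 (log2 difference -1.41, limma adjusted p = 5.30e-07). The 3 genes summed to 95.4 ± 5.44 FPKM in HCC827_Er and 155 ± 8.78 FPKM in HCC827, so the hexokinase total was lower in the line with more HK2. HK2 made up 23.3 ± 1.27% of that total in HCC827_Er and 3.51 ± 0.32% in HCC827. The share of HK1 was 51.8 ± 0.49% and 54.8 ± 1.10%, and that of HKDC1 was 24.9 ± 1.26% and 41.7 ± 0.80%. HK2 and HKDC1 stood at about the same FPKM in HCC827_Er, with ratios of 0.967, 1.01 and 0.832 in its libraries, against 0.0899, 0.0849 and 0.0774 in the HCC827 libraries. The log2 ratio of HK2 to HKDC1 differed by 3.26 and that of HK2 to HK1 by 2.63, each with an exact two-sided permutation p = 0.10, the smallest possible.

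**Figure D2:**
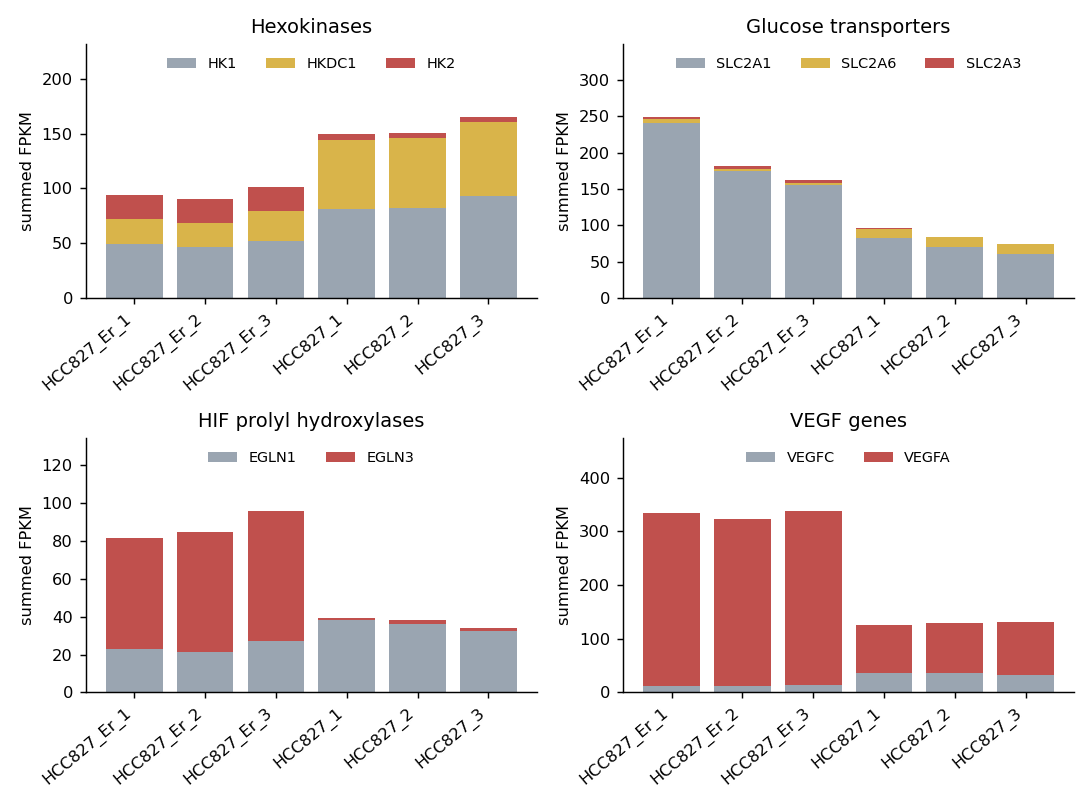
Summed FPKM in each library, HCC827_Er libraries left of HCC827 libraries, of hexokinase genes, of the 3 glucose transporter genes SLC2A1, SLC2A6 and SLC2A3, of EGLN1 and EGLN3, and of VEGFC and VEGFA; each bar is 1 library and its colours are the genes. EGLN3 and HK2 take 72.9% and 23.3% of their groups on average in HCC827_Er, against 4.28% and 3.51% in HCC827, while SLC2A3 is a thin band beside SLC2A1 in every library.

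PGK1 (ENSG00000102144), at chrX:77910739-78129296, encodes phosphoglycerate kinase, which makes ATP in the lower part of glycolysis. PGK1 had 852.12, 873.91 and 947.76 FPKM in HCC827_Er, against 403.31, 404.45 and 386.58 FPKM in HCC827. It was the most abundant of the 6 genes in both lines and had the smallest difference, a ratio of means of 2.24 and a log2 difference of 1.16 (SE 0.05, limma adjusted p = 1.00e-07). PGK1 alone of the 6 lost its call with median-ratio rescaling, at 0.82, so whether it passes 2-fold depends on how the lines are scaled. Of its transcript windows, 0.395% occur in other genes, both of them not analysed here.

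Other enzymes of glycolysis did not move as one. PFKL, a phosphofructokinase of the committed step, stood at 108 ± 13.4 FPKM in HCC827_Er and 64.6 ± 4.89 FPKM in HCC827, a log2 difference of 0.72, and ALDOC, an aldolase, at 24.3 ± 1.92 and 15.3 ± 0.955 FPKM, a difference of 0.63. BPGM stood at 9.52 ± 1.04 FPKM in HCC827_Er and 17.9 ± 0.210 FPKM in HCC827, a difference of -0.85. Of 27 names of glycolytic enzymes 8 were tested, with HK2 and PGK1 called higher, 2 called lower, HKDC1 among them, and a median of -0.07. Of all tested genes 24.7% were called higher and 19.7% lower. Without the members no enzyme was called higher and the median of the remaining 6 was -0.81. With median-ratio rescaling 1 enzyme was called higher and 4 were called lower, beside 17.0% and 31.4% of all tested genes.

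Among regulators of the pathway some were called in each direction. PDK3, a kinase that keeps pyruvate out of mitochondrial oxidation and is a HIF target, rose to 9.89 ± 0.325 FPKM in HCC827_Er, against 2.08 ± 0.234 FPKM in HCC827. PFKFB4, which makes and breaks down the activator of phosphofructokinase, rose to 28.2 ± 1.29 FPKM, against 9.55 ± 0.147 FPKM. FBP1, an enzyme of the reverse pathway, rose to 3.31 ± 0.893 FPKM, against 0.0867 ± 0.0306 FPKM in HCC827. It was tested only because of HCC827_Er, so the minimum level fixed its direction, and FBP1 was not called with 5 FPKM added (0.70). G6PC3, a glucose-6-phosphatase subunit, fell to 26.8 ± 2.95 FPKM in HCC827_Er, against 72.6 ± 0.862 FPKM in HCC827, and the carrier of lactate and pyruvate SLC16A7 was also called lower. SLC16A3, the lactate exporter of glycolytic cells, stood at 289 ± 59.6 FPKM in HCC827_Er and 167 ± 26.2 FPKM in HCC827, a log2 difference of 0.78 under the 2-fold minimum. Of 9 tested regulators 3 were called higher and 2 lower (median 0.77), beside 24.7% and 19.7% of all tested genes. With median-ratio rescaling 3 were called higher and 4 lower, beside 17.0% and 31.4%. In branches off glycolysis, PYGL, the glycogen phosphorylase of liver, rose to 292 ± 11.4 FPKM, against 132 ± 5.89 FPKM in HCC827. Of 5 tested genes of the pentose phosphate pathway and glycogen 2 were called higher (median 0.98), beside 24.7% of all tested genes. With median-ratio rescaling 0 of these were called higher, beside 17.0%.

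DDIT4 (ENSG00000168209), at chr10:72273920-72276036, encodes REDD1, a stress-induced inhibitor of the growth kinase MTOR complex. DDIT4 had 570.97, 524.39 and 503.24 FPKM in HCC827_Er, against 178.59, 166.6 and 158.25 FPKM in HCC827. The lines were far apart and their spread was alike, with an SD of 6.50% of the mean in HCC827_Er and 6.09% in HCC827. Its log2 difference was 1.66 (SE 0.06, limma adjusted p = 4.39e-08). Of its transcript windows, 41.8% also lie in DDIT4-AS1, a gene on the opposite strand that is not analysed here, and the strand setting of the counting is not given in the sources used here, so reads of the pair cannot be told apart over that stretch.

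DDIT4 is induced by HIF, by glucocorticoids and by the integrated stress response, the pathway in which ATF4 answers amino acid and protein folding stress. The tested genes of that response were lower in HCC827_Er. ATF3, a transcription factor of the response, fell to 8.04 ± 2.09 FPKM in HCC827_Er, against 64.3 ± 8.17 FPKM in HCC827 (log2 difference -2.87, limma adjusted p = 3.67e-07). PPP1R15A, the phosphatase subunit that ends it, fell to 19.8 ± 0.796 FPKM, against 106 ± 3.33 FPKM, and DDIT3, which encodes CHOP, to 16.6 ± 0.886 FPKM, against 40.5 ± 2.62 FPKM in HCC827. VLDLR, a lipoprotein receptor, fell to 26.2 ± 1.97 FPKM, against 58.1 ± 3.14 FPKM, and SLC7A5 and SLC3A2, the chains of an amino acid transporter, were also called lower. Of 20 names 8 were tested, all with a negative difference, 6 of them called lower (median -1.08). The other names were not analysed here. Of all tested genes 19.7% were called lower, and 47.1% were lower with no overlap between the lines. With sum rescaling 2 of the 8 were called lower, beside 15.0% of all tested genes, DDIT3 and VLDLR not among them. With median-ratio rescaling 7 were, beside 31.4%. The log2 ratio of DDIT4 to DDIT3 was 4.92 ± 0.15 in HCC827_Er and 2.02 ± 0.07 in HCC827, a difference of 2.90 (exact two-sided permutation p = 0.10, the smallest possible).

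Other brakes of MTOR were called higher at a share near that of all tested genes. DEPTOR, a subunit that inhibits MTOR, rose to 3.90 ± 0.266 FPKM in HCC827_Er, against 0.353 ± 0.266 FPKM in HCC827, and SESN3, a sestrin, to 1.68 ± 0.0551 FPKM, against 0.120 ± 0.0693 FPKM. SESN2, the sestrin induced by ATF4, stood at 7.18 ± 0.637 FPKM in HCC827_Er and 10.5 ± 1.08 FPKM in HCC827, a log2 difference of -0.49. Of 10 tested genes 3 were called higher and none lower (median 0.72), and without DDIT4 the count was 2 of 9, beside the 24.7% of all tested genes called higher. DEPTOR and SESN3 were under 1 FPKM in every HCC827 library and were tested only because of HCC827_Er, so the minimum level fixed their direction. Neither DEPTOR (0.73) nor SESN3 (0.38) was called with 5 FPKM added.

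On the deposited scale, other HIF targets were called higher and lower at shares near those of all genes. Of 64 names, 31 were in the table and 30 were tested, with 13 called higher and 4 called lower and a median of 0.85. The 6 genes described above belong to this list, and without them 7 of 24 were called higher and 4 lower, with a median of 0.79. These counts stand beside the 24.7% of all tested genes called higher and the 19.7% called lower. With median-ratio rescaling the 30 genes held 11 called higher and 6 lower, against 17.0% and 31.4% of all genes. With sum rescaling they held 19 and 4, against 34.6% and 15.0%. These counts include the 6 genes, of which 5 were called higher with median-ratio rescaling and 6 with sum rescaling. Without the 6, the share called higher was above that of all genes on both scales, so its nearness to that share depends on the scale. IGFBP3, a binding protein of insulin-like growth factors, rose to 984 ± 33.8 FPKM in HCC827_Er, against 39.0 ± 1.97 FPKM in HCC827. ERO1A, an oxidase of the endoplasmic reticulum, rose to 171 ± 12.1 FPKM, against 42.7 ± 2.62 FPKM. PLIN2, a coat protein of lipid droplets, fell to 125 ± 5.66 FPKM in HCC827_Er, against 299 ± 2.89 FPKM in HCC827 (log2 difference -1.25, limma adjusted p = 5.05e-08). CITED2 and PPP1R3B were also among the 4 called lower, and the other genes called higher were SLC2A1, PFKFB4, HILPDA, PPFIA4 and ANGPTL4 beside the 6.

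**Figure D3:**
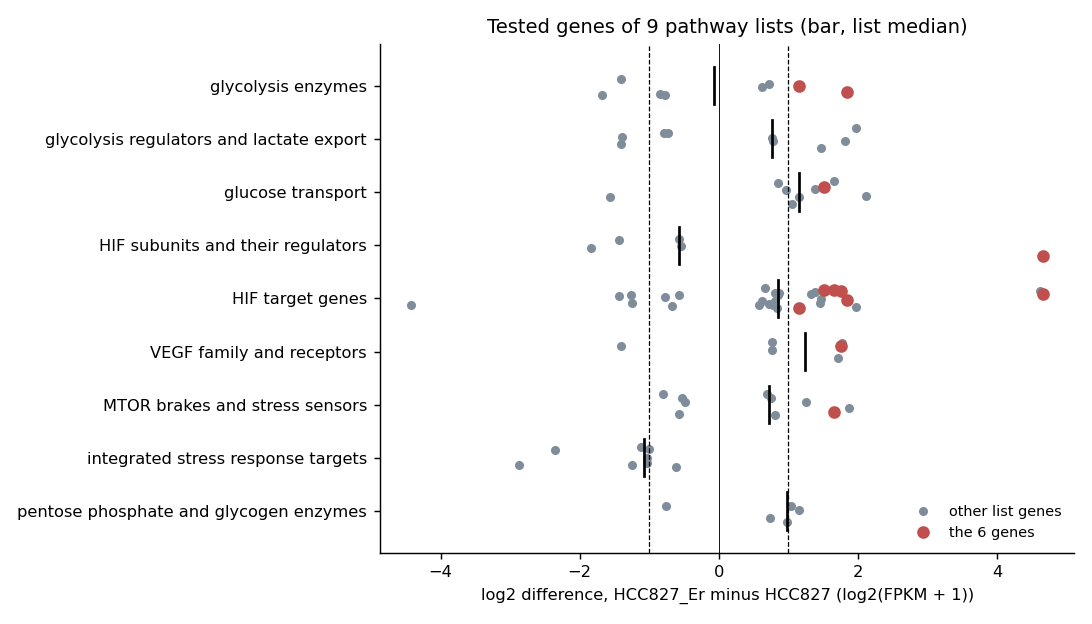
Log2 difference, HCC827_Er minus HCC827, of each tested gene of 9 pathway lists; red points are the 6 genes, grey points the other list members, the black bar the list median, and dashed lines a 2-fold change. HIF targets and glucose transport genes lie mostly right of 0 with medians of 0.85 and 1.15. The minimum level for testing fixed the side of SLC2A3, SLC2A9, SLC2A10 and SLC2A12, and SLC2A12 itself sets the glucose transport median. Integrated stress response targets lie left of 0 with a median of -1.08, and glycolysis enzymes stand on both sides. A gene can be in several lists.

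Set beside each other, the 6 genes kept nearly the same order of level in both lines. PGK1 was highest, DDIT4 second and VEGFA next, and SLC2A3 was lowest, in each line. EGLN3 and HK2 changed places, with EGLN3 above HK2 in all 3 HCC827_Er libraries and below it in all 3 HCC827 libraries. No neighbours in the order of either line overlapped between libraries. Relative to PGK1 within the same library, EGLN3 gained 3.50 on the log2 scale, HK2 0.69, VEGFA 0.60 and DDIT4 0.50, each at the smallest exact permutation p of 0.10, and SLC2A3 gained 0.35 (exact permutation p = 0.20). Over the 11 ratios tested, the Benjamini-Hochberg adjusted value of the ratios at the smallest exact p was 0.122, so none could pass 0.05 in this design. With 5 FPKM added the difference of SLC2A3 over PGK1 was -0.59, so its place relative to PGK1 depends on the pseudocount.

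**Figure D4:**
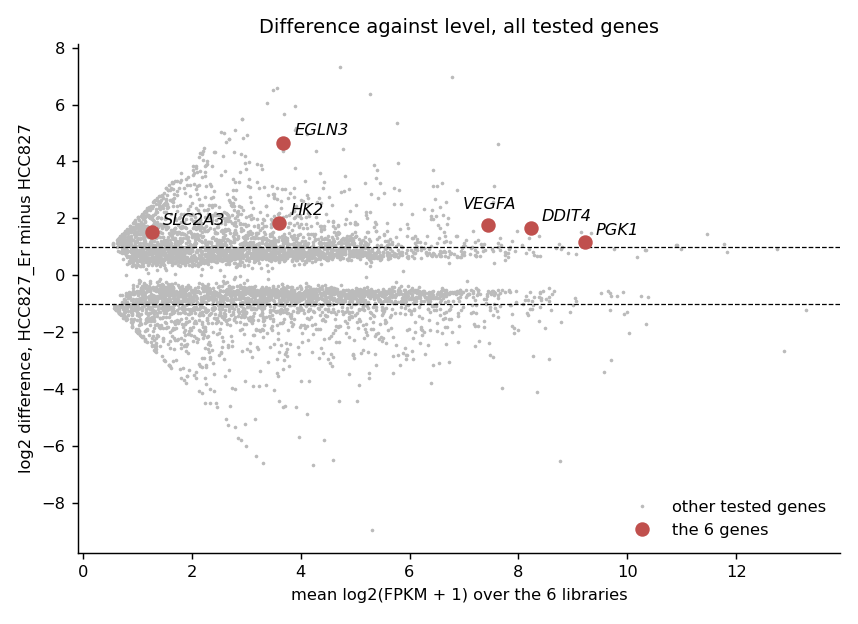
Log2 difference, HCC827_Er minus HCC827, against the mean log2(FPKM + 1) over the 6 libraries, for all 5276 tested genes (grey) with the 6 genes in red; dashed lines mark a 2-fold change. The band around 0 is almost empty, since the table holds few genes at a like level in both lines, and EGLN3 at 4.66 lies well above the other 5, which lie between 1.16 and 1.85.

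The scale of the lines bears on all 6 values alike. Median-ratio rescaling moved HCC827_Er against HCC827 by -0.34 on the log2 scale and rescaling to equal sums by 0.25, and of all tested genes 896 were then called higher and 1657 lower, or 1825 higher and 794 lower, against 1304 and 1041 as deposited. EGLN3 stood at 4.37 and 4.86 under these rescalings, HK2 at 1.54 and 2.07, VEGFA at 1.42 and 2.01, DDIT4 at 1.32 and 1.91, SLC2A3 at 1.31 and 1.63, and PGK1 at 0.82 and 1.41. All 6 stayed above 0 throughout, and only PGK1 went under the 2-fold minimum. Both rescalings rest on the listed genes alone. Few of these stood at a like level in both lines, so neither rescaling can show which scale is right.

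**Figure D5:**
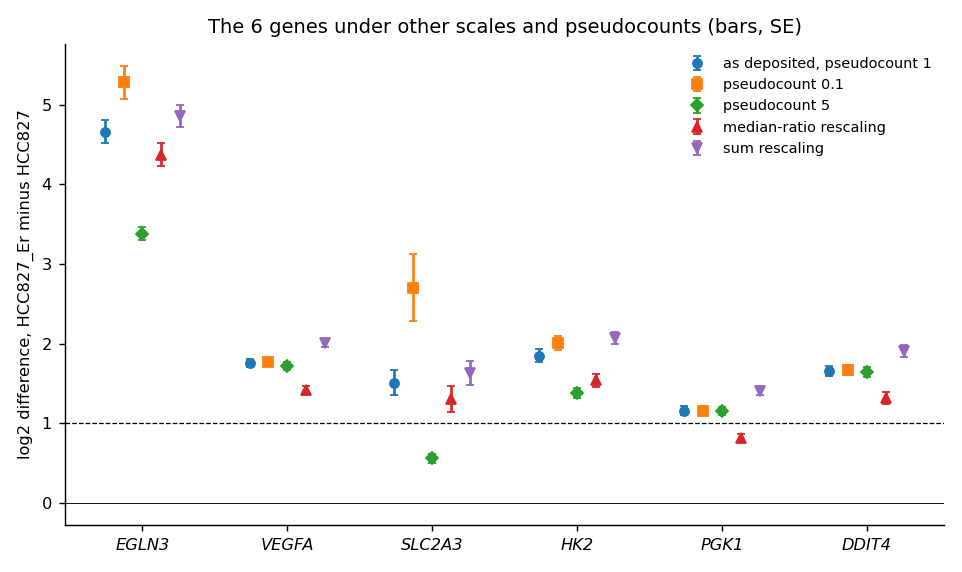
Log2 difference with its SE for each of the 6 genes as deposited with 1 FPKM added, with 0.1 or 5 FPKM added, and with 2 rescalings of the libraries; the dashed line marks a 2-fold change. SLC2A3 falls to 0.56 with 5 FPKM added and PGK1 to 0.82 with median-ratio rescaling, and the other 4 genes stay above 1 in all 5 settings.

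The genes lie on 6 different chromosomes, and their tested neighbours within 1000000 bases did not share 1 pattern. Around EGLN3, 6 neighbours had differences between 0.73 and 1.39 with 1 called higher, and the median of 254 tested genes of chromosome 14 was 0.82, while EGLN3 itself stood at 4.66. Around DDIT4 all 4 neighbours were between -0.94 and -0.55, and the median of 182 genes of chromosome 10 was -0.58, opposite to DDIT4. Around SLC2A3 the 17 neighbours went both ways, between -3.15 and 3.51, with 5 called higher and 5 lower and a median of -0.61. The 8 neighbours of VEGFA also went both ways, between -1.41 and 2.12, with 3 called higher and 3 lower. The 9 neighbours of HK2 lay between -1.43 and 3.03, with 5 called higher and 1 lower. The 3 neighbours of PGK1 lay between 0.73 and 1.67, with 1 called higher. Chromosome medians were 0.79 for chromosome 2 and 0.86 for X, the same sign as HK2 (1.85) and PGK1 (1.16). They were 0.53 for chromosome 6 and -0.63 for chromosome 12. Of chromosome X genes 39.4% were called higher, and of chromosome 2 genes 35.0%. Of all tested genes 24.7% were called higher and 19.7% lower. DNA copy number was not measured.

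By distance between centred log2(FPKM + 1) profiles over the 6 libraries, the genes nearest to EGLN3 were IGFBP2 (0.381) and KRT16 (0.439), which are also almost silent in HCC827. IGFBP2 stood at 32.9 ± 2.14 FPKM in HCC827_Er and 0.220 ± 0.121 FPKM in HCC827. VEGFA was nearest to TBC1D30 (0.120) and to the coreceptor gene NRP2 (0.122). The profile of HK2 was nearest to RBBP8NL (0.0927) and RASD2 (0.118), that of SLC2A3 to FAM47E (0.169) and PRELID2 (0.214), that of PGK1 to SLC2A12 (0.0829), and that of DDIT4 to NEURL1B (0.0961) and SBK1 (0.115). With 2 lines, such nearness is little more than a like difference between them on the log2(FPKM + 1) scale. The added 1 FPKM shrinks the difference of low genes, so the fold changes can be unlike. RBBP8NL was listed at 0 in every HCC827 library. SLC2A12 had a ratio of means of 21.5, against 2.24 for PGK1.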

How the data were processed

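Total RNA of 3 HCC827_Er and 3 HCC827 samples was sequenced after Illumina TruSeq library preparation, per the labels' protocols, which speak of tissue samples while the labels name cell lines. The authors deposited 1 table of FPKM per gene with Ensembl identifiers, rounded to 2 decimals, without counts, so depth and counting error are unknown. The submitters' processing notes list fastp, HISAT2, StringTie and the builds GRCh38.p14 and hg19, with no roles or versions. The annotation, strand setting and rule for listing genes were not stated. Names were matched for 6636 of the 6641 identifiers, and for 5917 the name was not the identifier itself. Positions and transcripts came from GENCODE 29 on GRCh38, and promoters from RefSeq.

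Values were tested as log2(FPKM + 1) by limma (version 3.58.1, R 4.3.3; empirical Bayes with a mean-variance trend, line as the only term), with Benjamini-Hochberg adjustment over 5276 genes with at least 1 FPKM in 3 libraries; 1365 were set aside. On simulated data for this comparison 4976 genes were tested. Calls were made for 99% of the 100 genes shifted by 1.5 (log2), 100% of the 100 shifted by 3 and 0.0209% of unshifted genes. The shifted genes were drawn from those of higher level, and the simulation gave all others no difference between the lines. These rates therefore do not carry over to the real data, where most genes differ, or to low genes such as SLC2A3. Named genes were the members, their families, HIF regulators in the table, the 4 called genes with the largest change of each list and the 2 nearest profiles. KRT8, EPCAM, COL1A1, CD68, SLC7A5, SLC3A2, SLC16A7, SLC16A3, PFKL, ALDOC, BPGM, SESN2, PLIN2, PPP1R3B, HILPDA, PPFIA4, the neighbours by position, the motif search and the shared windows were added after values were seen. Members and lists were chosen with earlier results of these data known. Alternatives were other pseudocounts and minima, 2 rescalings, no trend, no minimum difference, a replicate block and each library left out. Some genes that the naming rule selects are not reported here.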

Additional observations from a re-analysis of the deposited data

How the results depend on the processing

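The count of the 6 genes called higher was 6, or 5, under every alternative: 5 with 5 FPKM added (SLC2A3, log2 difference 0.56), with a minimum of 5 FPKM (SLC2A3 not tested) and with median-ratio rescaling (PGK1, 0.82). Leaving out any 1 library kept all 6 called, with EGLN3 between 4.51 and 4.79 and SLC2A3 between 1.34 and 1.65. Depth is unknown, and SLC2A3 at under 1 FPKM in HCC827 is the least certain of the 6.

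Over all genes, 579 were called higher and 506 lower with 5 FPKM added, 867 higher with a minimum of 5 FPKM, 1657 lower with median-ratio rescaling, and 2672 higher and 2515 lower with no minimum difference. With 5 FPKM added, 1 glycolysis enzyme, 1 regulator and 1 HIF regulator were called lower, and 2 glucose transport genes, 1 MTOR brake and 1 pentose phosphate or glycogen enzyme higher. With a minimum of 5 FPKM, 1 glycolysis enzyme was called lower, and 2 glucose transport genes and 1 MTOR brake higher; with no minimum FPKM, 2 glucose transport genes were called lower. With median-ratio rescaling, 1 glycolysis enzyme was called higher and 4 lower, 4 regulators lower, 1 MTOR brake lower, and 0 pentose phosphate and glycogen enzymes higher and 1 lower; with sum rescaling, 2 integrated stress response targets were lower. With no minimum difference, calls were 4 higher and 4 lower for glycolysis enzymes, 5 and 4 for regulators, 4 lower for HIF regulators, 23 and 7 for HIF targets, 5 higher for the VEGF family, 6 and 4 for MTOR brakes, and 4 and 1 for pentose phosphate and glycogen enzymes.

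With 0.1 and then 5 FPKM added, the ratio differences were 5.87 and 3.89 for EGLN3 over EGLN1, 2.80 and 2.11 for HK2 over HK1, 3.45 and 2.66 for HK2 over HKDC1, 4.12 and 2.23 for EGLN3 over PGK1, 0.85 and 0.23 for HK2 over PGK1, 1.30 and -0.78 for SLC2A3 over SLC2A1, and 1.54 and -0.59 for SLC2A3 over PGK1. With 5 FPKM added they were 2.91 for VEGFA over VEGFC and 2.71 for DDIT4 over DDIT3. Without 1 library SLC2A3 over SLC2A1 lay between -0.05 and 0.26. The pseudocount itself sets these shifts for low genes.

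The replicate numbers did not pair the libraries: deviations of same-numbered libraries correlated with r of 0.106, -0.0219 and 0.0489 across 5276 genes. With the replicate block 1304 genes were called higher and 1041 lower, all 6 genes kept their calls, and EGLN3 stayed at 4.66.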
